A study of Mus musculus with 10 samples.

Results

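The genes described here are 10 markers of intestinal tuft cells, and 9 of the 10 were measured among the 22180 genes of the series. They were taken from a list by symbol, through probe sets that the platform annotation pairs with that symbol alone, and where a gene had several such probe sets the one with the highest mean was used. Ptgs1, which encodes cyclooxygenase 1, had no such probe set and was not analysed here. The RNA came from whole jejunum of female mice aged 10 to 12 weeks, with 1 Affymetrix array for each of 10 samples. The 5 knockout samples (numbered 1 to 5) had the genotype Pcyt1aLoxP/LoxP;VilCreERT2, in which a tamoxifen-inducible Cre is driven by the promoter of villin, a gene of gut epithelium. The 5 control samples (numbered 6 to 10) were Pcyt1aLoxP/LoxP without the Cre. Both groups were given tamoxifen for 5 days and a high fat diet for 4 days, and both were fasted overnight before 3 cm of the middle small intestine was taken. The series text speaks of feeding after the fast while each sample is labelled as fasted, and the source label of the controls repeats that of the knockouts, so groups follow titles and genotypes. The labels do not say whether each sample came from a separate mouse, and p-values therefore measure only the spread between these samples.

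Tuft cells are rare chemosensory cells scattered through the gut epithelium, and they need the transcription factor Pou2f3 to form. Signals in the lumen, such as succinate from microbes, act through G protein-coupled receptors on a taste-type cascade of phospholipase C, inositol trisphosphate receptors and the cation channel Trpm5. The cells then release the cytokine IL-25 and lipid mediators, which act on group 2 innate lymphoid cells, and IL-13 from those cells favours the formation of more tuft and goblet cells.

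All 9 measured genes had a negative log2 fold change (knockout minus control), as had 11744 of all 22180 genes. The 9 had a median of -0.44 and a range of -0.62 to -0.006, against a median of -0.01 over all genes tested. The sign of Il25 turned with median centring and with quantile normalization. The lowest values belonged to Sh2d6, Rgs13, Lrmp, Pou2f3 and Dclk1, while Trpm5, Gfi1b and Il25 lay nearest to 0. No member passed an adjusted p of 0.05 in limma (Benjamini-Hochberg adjustment over all 22180 genes), where 6 genes, or 0.0271% of those tested, did. At an unadjusted p under 0.05, 6 of the 9 members were lower in knockouts, and 5.56% of all genes were. The members were listed with earlier results of these arrays known, so setting these shares side by side is no test. The knockout arrays all lay below the control arrays for 2 members, Pou2f3 and Sh2d6, as they did for 0.965% of all genes. In a bulk sample, fewer tuft cells and less of these transcripts per tuft cell cannot be told apart.

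Promoter windows of the 250 bases before the transcription start are shown for members at both ends of that range, from the RefSeq promoter table of assembly GRCm38.p6. Sh2d6 and Rgs13 had the lowest log2 fold changes, and Gfi1b and Trpm5 were among those near 0. The table held windows for 5 of the 9 measured members, 6 windows in all because Dclk1 had a pair of starts.
Sh2d6 (chr6:72520037-72520286, minus strand): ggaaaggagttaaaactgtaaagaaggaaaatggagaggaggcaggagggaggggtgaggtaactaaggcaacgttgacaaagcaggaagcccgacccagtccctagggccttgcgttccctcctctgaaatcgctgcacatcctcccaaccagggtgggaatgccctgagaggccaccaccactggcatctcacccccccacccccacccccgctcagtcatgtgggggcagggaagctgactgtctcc
Rgs13 (chr1:144177373-144177622, minus strand): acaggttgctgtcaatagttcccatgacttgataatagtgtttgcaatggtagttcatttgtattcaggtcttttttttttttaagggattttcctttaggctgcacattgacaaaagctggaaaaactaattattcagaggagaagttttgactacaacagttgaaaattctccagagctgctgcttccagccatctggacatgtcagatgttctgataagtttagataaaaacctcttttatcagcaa
Gfi1b (chr2:28621983-28622232, minus strand): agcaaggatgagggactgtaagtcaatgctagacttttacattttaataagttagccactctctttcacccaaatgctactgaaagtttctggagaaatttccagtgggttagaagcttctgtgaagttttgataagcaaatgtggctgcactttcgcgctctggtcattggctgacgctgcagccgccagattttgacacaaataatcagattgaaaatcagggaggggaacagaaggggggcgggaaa
Trpm5 (chr7:143094643-143094892, minus strand): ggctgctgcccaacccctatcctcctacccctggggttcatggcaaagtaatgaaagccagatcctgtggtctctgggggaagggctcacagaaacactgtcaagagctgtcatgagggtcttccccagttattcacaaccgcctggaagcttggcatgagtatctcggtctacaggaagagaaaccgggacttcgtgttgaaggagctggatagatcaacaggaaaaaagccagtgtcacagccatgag
The octamer ATGCAAAT, the form bound by POU2F factors, its shorter core ATGCAAA and the GFI1-type core AATCACNGC were searched on both strands. The shorter core is contained in the octamer. None of the 6 windows held any of them, so no base is in capitals, and of all 32851 windows 1.6%, 4.12% and 0.776% did, in that order. The GC content was 59.2% for Sh2d6, 36.0% for Rgs13, 44.4% for Gfi1b and 52.8% for Trpm5, against a median of 52.4% over all windows. The absence of these letters concerns these windows only.

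Pcyt1a itself, which encodes the rate-limiting enzyme of the CDP-choline route to phosphatidylcholine, fell in knockouts (log2 fold change -1.93, SE 0.13, adjusted p = 9.577e-05 in limma), and its groups did not overlap, as the labels have it. The median log2 intensity of all genes lay between 5.77 and 5.89 on the 10 arrays. Markers of other cell types differed between arrays within groups, and some between groups. All 8 endothelial markers were positive (median log2 fold change 0.57). At an unadjusted p under 0.05, 5 of them were higher, as were 8.29% of all genes. Of 10 crypt stem cell markers 8 were positive and 2 negative, Lgr5 (-0.42, SE 0.19) and Rnf43 (-0.17, SE 0.11). The part of these markers in the tuft cell results was not tested. The endothelial mean was 6.45 to 7.32 in knockouts and 5.51 to 6.54 in controls. The mean log2 intensity of 13 B cell markers was 7.00 on control 8 and 6.61 on control 9 and lay between 5.46 and 5.83 on the others. The mean of 10 smooth muscle markers was highest on control 7 (10.03), control 9 (8.84) and knockout 1 (8.15), and that of 9 Paneth cell markers was lowest on control 6 (9.39), knockout 2 (9.5) and control 8 (10.22). The mean of 11 enterocyte markers, villin among them, lay between 12.77 and 12.95 on every array. Values without the arrays richest in B cell or muscle markers or poorest in Paneth markers are given where they moved a member.

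Pou2f3, the master regulator of tuft cell fate, read 5.17, 4.85, 5.21, 5.42 and 5.11 on knockouts 1 to 5 and 5.57, 5.54, 5.66, 5.43 and 5.83 on controls 6 to 10 (log2 intensity). The groups did not overlap, but knockout 4 and control 9 were separated by only 0.01, which is 1 step of the rounding in the deposited values. The log2 fold change was -0.45 (SE 0.11, 95% interval -0.70 to -0.20, unadjusted p = 0.001867, adjusted p = 0.1448), a knockout level 0.730 of that in controls. The separation was lost when each array was centred on its median. The log2 fold change stayed between -0.54 and -0.37 over 23 alternative settings. The mean log2 intensity of Pou2f3 was 5.379, below the 5.77 to 5.89 of the array medians over all genes. Whether Pou2f3 was above background was not assessed.

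Gfi1b, a zinc finger repressor found in tuft cells and in platelet and red cell precursors, read 6.31, 6.54, 6.24, 6.12 and 6.10 on the knockouts and 6.54, 6.42, 6.24, 6.44 and 6.53 on the controls. The groups overlapped, because knockout 2 equalled the highest control and control 8 lay among the knockouts. Its log2 fold change was -0.17 (SE 0.10, 95% interval -0.40 to 0.05, adjusted p = 0.4896), and -0.27 (SE 0.10, unadjusted p = 0.02125) without the 3 arrays lowest in Paneth markers. The 6 measured markers of platelets and megakaryocytes, which also use Gfi1b, had mean log2 intensities of 5.15 to 5.32 in knockouts and 5.13 to 5.34 in controls.

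**Figure D1:**
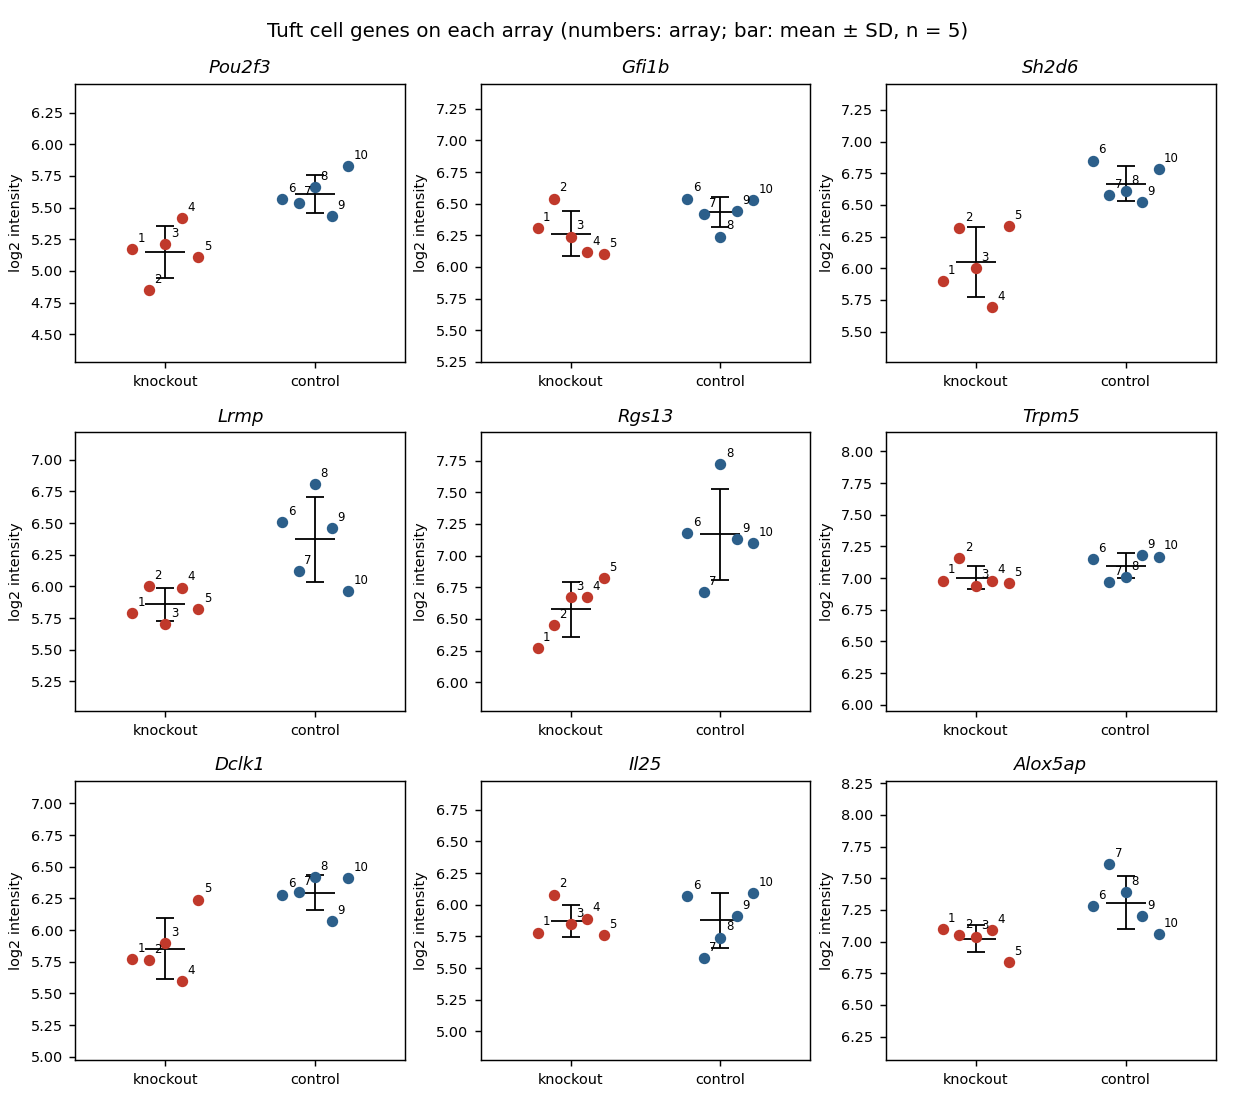
Log2 intensity (vertical axes, all spanning the same number of log2 units) of the 9 measured tuft cell genes on 5 knockout (red) and 5 control (blue) arrays, with the array number beside each point and bars for the mean ± SD. Pou2f3 and Sh2d6 show no overlap between groups, Rgs13 and Lrmp are highest on control 8, and Il25 overlaps throughout.

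Sh2d6 encodes an SH2 domain adaptor protein expressed in tuft cells. It read 5.90, 6.32, 6.00, 5.69 and 6.33 on the knockouts and 6.85, 6.58, 6.61, 6.52 and 6.78 on the controls. Every knockout lay below every control, with a gap of 0.19 between knockout 5 and control 9. Between the groups the log2 fold change was -0.62 (SE 0.13, 95% interval -0.91 to -0.33, unadjusted p = 5.101e-04, adjusted p = 0.1171), so that knockouts stood at 0.651 of controls. Among all genes it ranked 95th by p-value. Without knockout 2 it passed the threshold, with a log2 fold change of -0.69 (adjusted p = 0.03027), in a fit that called 452 genes of all those tested.

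Rgs13, a regulator of G protein signalling that is also a marker of germinal centre B cells and mast cells, read 6.27, 6.45, 6.67, 6.67 and 6.82 on the knockouts. The controls read 7.18, 6.71, 7.72, 7.13 and 7.10. Control 7 lay among the knockouts, and control 8, the array with the highest B cell markers, was the highest of all. Knockouts minus controls gave a log2 fold change of -0.59 (SE 0.17, 95% interval -0.96 to -0.23, adjusted p = 0.1759). It was -0.42 (SE 0.15, unadjusted p = 0.02174) without controls 8 and 9 and -0.37 without the 3 arrays lowest in Paneth markers, which include control 8. Mast cell markers (12 measured) had mean log2 intensities of 4.28 to 4.65 in knockouts and 4.20 to 4.39 in controls, with 7 of 12 positive.

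Lrmp, which encodes an endoplasmic reticulum membrane protein of tuft cells and lymphocytes, read 5.79, 6.00, 5.70, 5.99 and 5.82 on the knockouts and 6.51, 6.12, 6.81, 6.46 and 5.96 on the controls. Controls 6, 8 and 9 stood above all knockouts, control 7 above them by less, and control 10 lay among them. The difference (log2 fold change) was -0.51 (SE 0.15, 95% interval -0.83 to -0.19, adjusted p = 0.1820). Without controls 8 and 9 it was -0.34 (SE 0.14, unadjusted p = 0.03574) and with the B cell score as a covariate -0.36 (SE 0.12). With controls 8 and 9 left out, the values of other leading members were -0.69 for Sh2d6, -0.49 for Pou2f3 and -0.48 for Dclk1. The mean of the B cell markers ranged from 5.53 to 5.83 in knockouts and from 5.46 to 7.00 in controls, and 11 of the 13 had negative log2 fold changes. Cxcr5 (-0.68, SE 0.26) and Blk (-0.56, SE 0.25) had the smallest p-values among those, and the joining chain gene Jchain of plasma cells went the other way (0.83, SE 0.34). Whether any part of the Rgs13, Lrmp or other differences comes from B cells, or from other traits of controls 8 and 9, was not tested.

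**Figure D2:**
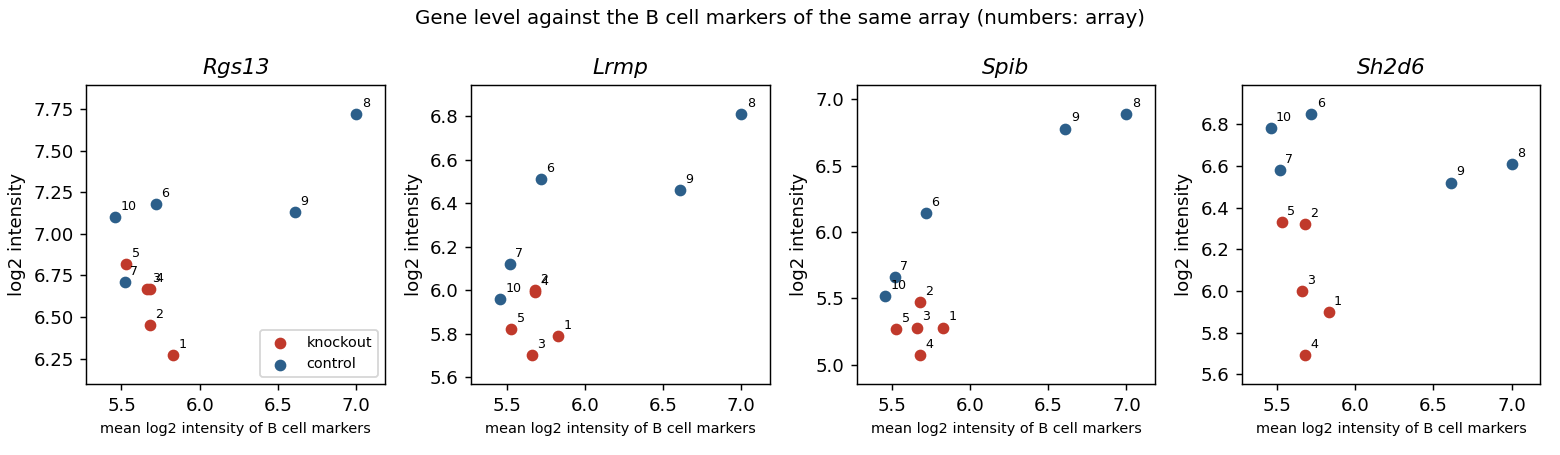
Log2 intensity of Rgs13, Lrmp, Spib and Sh2d6 (vertical axes) against the mean log2 intensity of 13 B cell markers (horizontal axes) on the 5 knockout (red) and 5 control (blue) arrays, numbered. Control 8 is at the top for Rgs13 (7.72), Lrmp (6.81) and Spib (6.89), whereas for Sh2d6 controls 8 (6.61) and 9 (6.52) lie within the range of the other controls or below it.

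Trpm5, the cation channel at the end of the taste-type cascade, read 6.98, 7.16, 6.94, 6.98 and 6.96 on the knockouts and 7.15, 6.97, 7.01, 7.18 and 7.17 on the controls. The groups overlapped. Knockout 2 stood among the high controls, control 7 among the other knockouts and control 8 just above them. Its log2 fold change was -0.09 (SE 0.08, 95% interval -0.27 to 0.09, adjusted p = 0.6608), with the smallest SE of the 9 members.

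Dclk1, a microtubule-associated kinase widely used to stain tuft cells and also present in neurons, read 5.77, 5.76, 5.90, 5.60 and 6.24 on the knockouts and 6.28, 6.30, 6.42, 6.07 and 6.41 on the controls. Knockout 5 stood apart from the other knockouts and above control 9, which is the only overlap. The fitted log2 fold change was -0.44 (SE 0.12, 95% interval -0.71 to -0.18, unadjusted p = 0.003487, adjusted p = 0.1663), or 0.736 of the level in controls. Of 8 measured neuron and glia markers, 7 had negative log2 fold changes too, with a median of -0.21. Their mean log2 intensity was 5.25 to 5.47 in knockouts and 5.35 to 6.15 in controls. It was highest on control 7, where Dclk1 was in the middle of the controls. The part of neurons in the Dclk1 difference was not tested. Without control 7, control 9 and knockout 1 the Dclk1 value was -0.50 (SE 0.15).

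Il25, the cytokine by which tuft cells activate innate lymphoid cells, read 5.78, 6.08, 5.85, 5.89 and 5.76 on the knockouts and 6.07, 5.58, 5.74, 5.91 and 6.09 on the controls. The groups overlapped throughout, with the lowest and the highest value both in controls. The log2 fold change was -0.006 (SE 0.11, 95% interval -0.25 to 0.24), and its sign turned under 9 of 23 alternative settings. The mean log2 intensity of Il25 was 5.875, within the 5.77 to 5.89 of the array medians over all genes. Whether Il25 was above background was not assessed.

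Alox5ap, which presents arachidonic acid to 5-lipoxygenase and is also expressed by macrophages and granulocytes, read 7.10, 7.05, 7.04, 7.09 and 6.84 on the knockouts and 7.28, 7.61, 7.39, 7.20 and 7.06 on the controls. Controls 6 to 9 lay above all knockouts and control 10 among them. Between the groups the log2 fold change was -0.28 (SE 0.11, 95% interval -0.52 to -0.05, unadjusted p = 0.02206, adjusted p = 0.2709). A second probe set for this gene, with a mean log2 intensity of 4.92, gave -0.22 (SE 0.14). The unadjusted p of the main probe set was above 0.05 in 5 of 24 alternative settings, and was 0.05168 without controls 8 and 9. Of 13 macrophage markers 12 were positive, with a median log2 fold change of 0.28. Their mean log2 intensity was 6.34 to 6.94 in knockouts and 6.09 to 6.57 in controls. No list of granulocyte markers was used. The part of macrophages or granulocytes in the Alox5ap difference was not tested.

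The 3 members nearest to 0 peaked on the same knockout array. On knockout 2, Trpm5, Gfi1b and Il25 were each at their knockout maximum, while Pou2f3 was at its minimum over all arrays. That array also had the highest means for macrophage (6.94) and T cell (7.41) markers and the lowest Paneth mean among the knockouts. Among the controls, array 10 was highest for Pou2f3 and Il25, array 8 for Rgs13, Lrmp and Dclk1, array 6 for Sh2d6 and Gfi1b, array 7 for Alox5ap and array 9 for Trpm5. Group means were subtracted before members were correlated over the 10 arrays. The Pearson correlation of each member with the mean of the other 8 ranged from -0.60 to 0.33 (Spearman -0.25 to 0.41). Between single pairs of members it ran from -0.61 (Il25 with Alox5ap) to 0.89 (Trpm5 with Il25). No p was computed for these correlations. The values compared share the same arrays and their common normalization. The mean of the 9 members was 6.12 to 6.25 in knockouts and 6.43 to 6.62 in controls, although the members were listed with earlier results of these arrays known and no test was made of it.

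**Figure D3:**
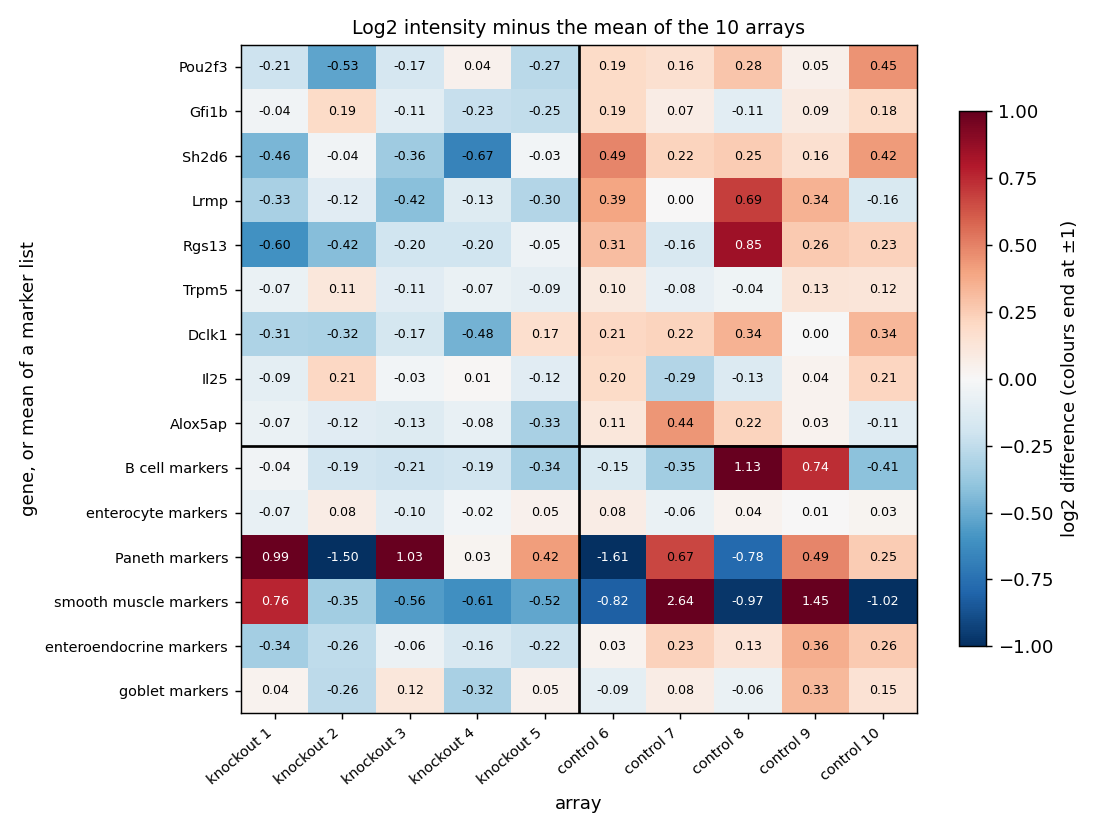
Log2 intensity of each tuft cell gene, and the mean over each list of markers of another cell type, minus the mean of the 10 arrays (rows), for each array (columns, knockouts left of the line). Most tuft cell genes are below their mean on knockouts and above it on controls, whereas Paneth and smooth muscle markers vary within both groups.

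When the other genes were ranked by how closely they followed the group-centred mean of the members over the 10 arrays, the 10 highest of 22171 had Pearson correlations of 0.92 to 0.96. They were 4930412M03Rik, Erich1, Ifnlr1, Zc3h15, Slx4ip, Adam21, Rnf121, Nat2, Stk31 and Zfp654. None is a gene of the tuft cell lists, their log2 fold changes ran from -0.21 to 0.144, and no p was computed for the ranking. They were picked as the highest of 22171 over 10 arrays, so the size of their correlations cannot show a link to the members. The group-centred mean of the members itself ran only from -0.11 to 0.09. Among the marker lists, the member mean followed that of enterocyte markers (Pearson 0.79) and ran against those of smooth muscle (-0.86), Paneth cells (-0.78) and crypt stem cells (-0.78) over the same 10 arrays. Within the tuft cell lists it ran from 0.71 for kinases and adaptors to -0.82 for the cytoskeletal list, although these lists hold some of the members.

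Of 61 further genes from 6 lists of tuft cell biology, 43 had negative log2 fold changes, with a median of -0.14. Over all genes, 11744 of 22180 were negative. At an unadjusted p under 0.05, 11 were lower and 3 higher in knockouts, against 5.56% and 8.29% of all genes, and none passed after adjustment. The count of lower genes was 6 without controls 8 and 9. These lists hold genes that other jejunal cells also express, such as Krt18, Sox9 and Gnai2. The counts given below for each tuft cell list include the members in it, so they repeat members counted above. The shares of all genes given here stand beside those counts too.

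Among the fate regulators, 2 of 9 measured genes were lower at an unadjusted p under 0.05 and 1 was higher. The lower ones were Pou2f3 and Spib, an Ets factor of tuft cells, M cells and B cells. Spib read 5.28, 5.47, 5.28, 5.07 and 5.27 on the knockouts and 6.14, 5.66, 6.89, 6.78 and 5.52 on the controls, with no overlap. Controls 8 and 9, the arrays rich in B cell markers, were the highest. Knockouts minus controls gave a log2 fold change of -0.92 (SE 0.24, adjusted p = 0.1522), and -0.50 (SE 0.15) without those arrays. Sox4, which promotes tuft cell differentiation, was the higher gene (0.57, SE 0.19, adjusted p = 0.2110), and without knockout 2 it passed the threshold (0.75, adjusted p = 0.02574) in the fit that called 452 genes. With the mean of its probe sets Sox4 was at 0.32 (SE 0.19, unadjusted p = 0.1226). The median of the 9 was -0.08.

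In the chemosensory list, 12 of 16 measured genes had negative values and 4 were lower at an unadjusted p under 0.05. Besides Rgs13 these were Rgs2 (-0.54, SE 0.14), another regulator of G protein signalling, the inositol trisphosphate receptor Itpr2 (-0.45, SE 0.13) and the succinate receptor Sucnr1 (-0.58, SE 0.21). Sucnr1 read 3.87, 4.06, 4.62, 4.36 and 4.82 on the knockouts and 4.81, 4.75, 4.42, 5.21 and 5.43 on the controls, so controls 6, 7 and 8 lay below knockout 5. The unadjusted p of Sucnr1 was 0.0541 without knockout 1 and 0.05255 without control 10. The taste G protein gustducin, Gnat3, was at -0.40 (SE 0.19). It was at -0.24 (SE 0.15) without control 10 and at -0.49 (SE 0.19) without knockout 5. Phospholipase C beta 2, Plcb2, was at -0.14 (SE 0.15). The Plcb2 value was 0.0073 without controls 8 and 9. The G protein subunit Gng13 was not analysed here.

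In the list of kinases and adaptors, 14 of 17 measured genes had negative values. At an unadjusted p under 0.05, 5 were lower and 1 was higher. Sh2d7, another SH2 domain protein, read 5.75, 6.18, 6.25, 6.26 and 6.29 on the knockouts and 6.71, 6.56, 6.59, 6.72 and 6.83 on the controls. Its groups did not overlap, and the log2 fold change was -0.54 (SE 0.11, adjusted p = 0.1171). The tyrosine kinase Bmx (-0.46, SE 0.14) and the GTPase Rac2 (-0.39, SE 0.18) complete the lower genes with Sh2d6 and Lrmp, and, outside the limit of 4 genes for a list, were chosen with their values in view. Pik3r3, a regulatory subunit of phosphoinositide 3-kinase that many cells express, had all knockout arrays above all control arrays, as had 1.64% of all genes (0.78, SE 0.16, adjusted p = 0.1113). It passed with the Paneth score as a covariate (0.83, adjusted p = 0.0333), in a fit that called 238 of all genes.

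Of 10 genes of the cytoskeleton and apical bristle, 9 had negative values and 4 were lower at an unadjusted p under 0.05. Next to Dclk1 these were Kctd12 (-0.39, SE 0.12), which has a potassium channel tetramerisation domain, the actin-binding protein advillin, Avil (-0.28, SE 0.10), and Strip2 (-0.29, SE 0.13), which was under that p in 10 of 23 alternative settings. Avil, which in the gut epithelium marks tuft cells, read 5.76, 6.05, 6.15, 6.03 and 5.86 on the knockouts and 6.37, 6.25, 6.33, 6.22 and 6.07 on the controls. Only control 10 lay within the range of the knockouts.

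The eicosanoid enzymes did not share a direction. Of 7 measured genes 3 were negative and 4 positive, with a median of 0.10. 5-lipoxygenase Alox5, which works with Alox5ap, was at -0.13 (SE 0.08, 95% interval -0.31 to 0.06) by its brightest probe set and at -0.33 (SE 0.10, unadjusted p = 0.005429) by the mean of its probe sets. Leukotriene C4 synthase Ltc4s was at -0.17 (SE 0.17), and at -0.0345 without knockout 1 or -0.31 without knockout 2. The prostaglandin D synthase Hpgds was at 0.25 (SE 0.18). It was at 0.15 without knockout 2, 0.15 without control 9, 0.16 without control 10 and 0.36 without control 8. The phospholipase Pla2g4a, which frees arachidonic acid from phospholipids in many cell types, had the 1 positive value under an unadjusted p of 0.05 (0.66, SE 0.17, adjusted p = 0.1488). It read 7.43, 7.35, 7.39, 7.36 and 6.86 on the knockouts and 6.49, 7.08, 6.93, 6.36 and 6.25 on the controls, and knockout 5 alone lay among the controls.

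Cytokines, receptors and the enzyme of acetylcholine synthesis gave 9 negative values among 11 genes and 1 gene lower at an unadjusted p under 0.05. That gene was Siglecf, a lectin of tuft cells and eosinophils (-0.45, SE 0.17), which was at -0.30 (SE 0.18) without controls 8 and 9. Choline acetyltransferase, Chat, was at -0.19 (SE 0.09, 95% interval -0.39 to 0.01) and the IL-25 receptor subunit Il17rb at -0.15 (SE 0.10).

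Partners of tuft cells in type 2 immunity showed a median of 0 over 13 measured genes, with 6 negative and 6 positive. Il13, the cytokine that expands tuft cells, was at -0.05 (SE 0.12, 95% interval -0.31 to 0.21). The lymphoid receptor Klrg1 was the only one lower at an unadjusted p under 0.05 (-0.23, SE 0.10).

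**Figure D4:**
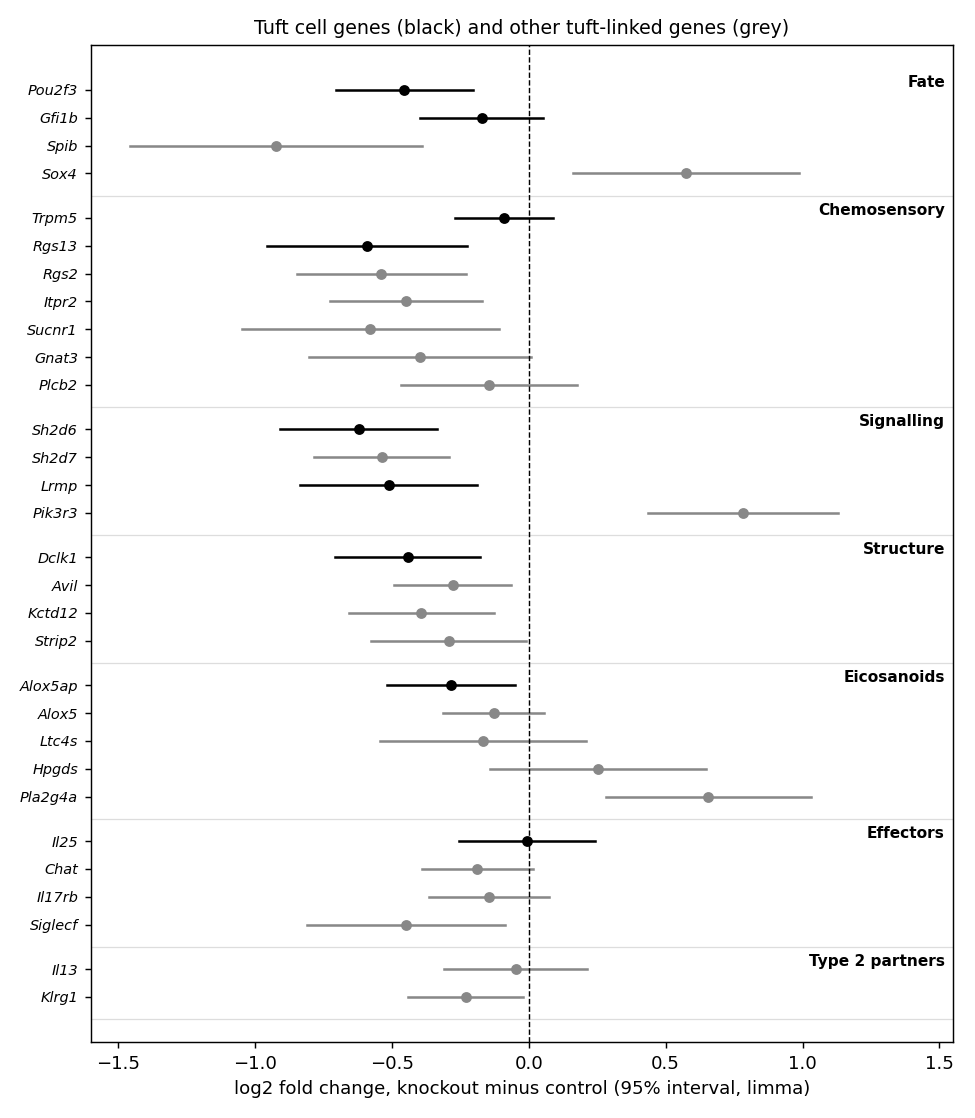
Log2 fold change, knockout minus control, with its 95% interval from limma (horizontal axis) for the 9 tuft cell genes (black) and other tuft-linked genes (grey), by role. Intervals of Pou2f3, Sh2d6, Rgs13, Lrmp, Dclk1 and Alox5ap lie below 0, those of Trpm5, Gfi1b and Il25 include 0, and Sox4, Pik3r3 and Pla2g4a lie above 0.

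Enteroendocrine and goblet cell markers, from other secretory lineages, were mostly negative too, and Paneth cell markers were not. Of 16 enteroendocrine markers 15 were negative (median -0.37), and of 10 goblet markers 8 were (median -0.25). At an unadjusted p under 0.05, 5 and 4 of them were lower, against 5.56% of all genes. Sst, the somatostatin gene of enteroendocrine cells, was the one that passed over all genes. The goblet markers with the smallest p-values were Tff3 (-0.43, SE 0.11) and Fcgbp (-0.33, SE 0.09). The 2 positive ones were Spink4 (0.43, SE 0.31) and Agr2 (0.14, SE 0.22). Paneth markers were mostly positive (8 of 9), with 0 under that p. Among 11 enterocyte markers 6 were negative and 4 positive (median -0.03). The differences between these lists and the tuft cell genes were not tested.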

How the data were processed

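Whole jejunum RNA of 5 knockout and 5 control samples was labelled from 400 ng of total RNA and hybridised to 1 Affymetrix array per sample. The table the authors deposited holds probe set intensities on a linear scale for 34472 probe sets, between 1.88 and 15500.2. RMA in Affymetrix Expression Console 1.4.1.46 is named per the submitters' processing notes, and the genome build is not given in the sources used here. RMA equalises array distributions, so a shift of all genes together would not be seen. The log2 of every deposited value lay on steps of 0.01 (tolerance 0.001). Precision is set by how many arrays there are. No background or detection values were used. Whether genes of low or middling intensity, such as Sucnr1, Gnat3, Pou2f3 and Il25, were above background was therefore not assessed.

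Log2 values were taken with no pseudocount and no filter. GEO's platform annotation gave 1 symbol for 23521 probe sets, several for 1814 and none, or no listing, for 9137. A gene was represented by the probe set with the highest mean, which left 22180 genes (1082 with several probe sets). The comparison used lmFit and eBayes of limma 3.58.1 (R 4.3.3), two-sided and without covariates, with Benjamini-Hochberg adjustment over all genes, after the script was tested on simulated data. Each ± or SE of the main comparison rests on 5 arrays per group, and an SE from a fit that left arrays out rests on fewer. The SE of limma also draws on the variance of all genes fitted. Knockout and control numbers are not shared, so no pairing was made.

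The members and lists were chosen with earlier results of these data known, so no test was made over a list. Named beside the members were up to 4 genes per tuft cell list with the smallest unadjusted p under 0.05, a set of well known tuft cell genes whatever their p, up to 3 genes per list of another cell type, and the 10 genes most like the member mean. Alternatives were the probe set rule, filters at a mean log2 of 5 and 6, median centring, quantile normalization, a variance trend, array weights, leaving out each array, leaving out arrays by cell type markers, and those markers as covariates.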

Additional observations from a re-analysis of the deposited data

Results flagged for a closer look

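In 62 groups of 5 arrays (31 named genes), 5 held an array apart from the other 4 by Dixon's criterion, which chance gives in about 5% of groups. Trpm5 read 7.16 on knockout 2 against 6.94 to 6.98 on the other knockouts. Alox5ap read 6.84 on knockout 5 against 7.04 to 7.10. Sh2d7 read 5.75 on knockout 1 against 6.18 to 6.29. The phospholipase gene Pla2g4a read 6.86 on knockout 5 against 7.35 to 7.43. Gnat3, the gustducin gene, read 5.46 on control 10 against 4.58 to 4.83 on the other controls.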

How the results depend on the processing

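Over 24 alternatives, the members lower at an unadjusted p under 0.05 numbered 5 to 7. Leaving out 1 array at a time gave 0 to 1 members past the adjusted threshold (Sh2d6, without knockout 2). It gave 0 to 1 genes of the wider tuft cell lists past it (Sox4, without knockout 2). The members with every knockout array below every control array numbered 2 to 4 (4 without knockout 5 or control 10). Up to 1.58% of all genes lay so in those fits, against 0.965% with every array. After median centring 1 member lay so, and 4 did when controls 7 and 9 and knockout 1, rich in smooth muscle markers, were left out. Fewer arrays then raised the share of all genes lying so to 4.22%. With the Paneth score as a covariate 1 wider gene passed (Pik3r3), in a fit that called 238 of all genes. The wider genes lower at an unadjusted p under 0.05 numbered 6 of the 38 left by a filter at a mean log2 of 6 (11 of 61 without it), and 6 of 61 when controls 8 and 9, rich in B cell markers, were left out. The member median was -0.34 without those controls, -0.36 with the B cell score as a covariate and -0.355 without the 3 arrays lowest in Paneth markers. Il25 turned positive with median centring (0.02), quantile normalization (0.0027), the Paneth score (0.033) and the enterocyte score (0.0439), and ran from -0.0805 to 0.047 when 1 array was left out. Il13 ran from -0.1375 to 0.0125 in the same way, and Plcb2 was 0.0073 without controls 8 and 9. The cause was not tested for these. No paired analysis was possible because knockouts are numbered 1 to 5 and controls 6 to 10.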
